A study of Mus musculus with 9 samples.

Results

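Potassium channel subunit genes were taken as every gene in the deposited table whose symbol is Kcn followed by subfamily letters and a number, which gave 92 of 55401 genes. They encode the pore-forming subunits of potassium channels and the auxiliary subunits that bind them. Of these, 75 had a mean of at least 0.5 FPKM (read fragments scaled to gene length and sequencing depth) over all libraries and were tested, and 17 lay below that level. The tissue was the border of a brain infarct in mice, collected on day 28. Photothrombosis (PT) makes such an infarct by shining light on the cortex of an animal that carries a photosensitizer, so that vessels clot where the light falls. There were 3 groups of 3 libraries, all from mice labelled wild type. Sham-operated mice and PT mice were given ultrapure water, and the remaining PT mice were given Pushen, a commercial drug preparation, dissolved in ultrapure water. Gavage began 24 h after surgery, and the labels give doses of 391, 392 and 393 mg/kg for Pushen libraries 1, 2 and 3, which were treated as 1 group. The labels used here name no strain, sex or age. Nor do they say that each library is a separate animal, so the p-values below speak of library-to-library spread, some of which may be technical. Libraries are called by group and number, as in sham 1 or PT 1.

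Potassium channels let potassium leave the cell and so set the resting potential and end the action potential. Voltage-gated Kv channels open on depolarization and shape firing, calcium- and sodium-activated channels add an after-hyperpolarization, inward rectifiers (Kir) and tandem-pore channels carry current at rest, and auxiliary subunits tune the pores in trafficking and gating. In cortex most Kv subunits belong to neurons, astrocytes buffer extracellular potassium largely through the Kir subunit Kcnj10, and microglia hold a resting current through the tandem-pore subunit Kcnk13.

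Total counts lay between 57437342 and 75100133 per library, and the 92 subunit genes together took between 0.604% and 0.634% of the counts in sham, 0.424% and 0.548% in PT, and 0.472% and 0.516% in Pushen. One label speaks of retinas, but of 13 photoreceptor markers 1 reached the test level, and their summed level stayed between 1.06 and 1.59 FPKM. All 10 pan-neuronal markers were tested, as were all 9 astrocyte markers. Before any result, 2 libraries stood apart. PT library 1 had 666 FPKM summed over 9 striatal neuron markers, against 101 to 112 in sham and 101 to 174 in the other infarct libraries. PT library 1 and Pushen library 2 had 548 and 628 FPKM summed over 8 choroid plexus markers, against 3.02 to 18.5 in sham and 22.2 to 151 in the other infarct libraries.

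Levels are compared between genes only as FPKM, which accounts for length. In sham the highest mean level was that of Kcnab2, a cytoplasmic beta subunit of Kv channels (48.7 ± 13.2 FPKM, SD, n = 3), followed by the G protein-gated Kir subunit Kcnj9 (47.8 ± 3.28) and the strong inward rectifier Kcnj4 (46.8 ± 2.70). The order of these did not exceed their spread. Over all libraries the highest means by class were 20.8 FPKM for Kcnf1 among the silent Kv subunits, 15.2 for Kcnq5 among the Kcnq subunits and 32.5 for Kcnh3 among the Kcnh subunits. The corresponding values were 18.2 FPKM for the sodium-activated Kcnt1, 42.4 for Kcnj4, 35.4 for the tandem-pore subunit Kcnk1, 43.5 for Kcnab2 and 13.4 for Kcnmb4, the main neuronal beta subunit of the large-conductance calcium-activated channel. Of the exon bases of Kcnmb4 31.5% are shared with antisense genes, so its level is uncertain. The test level was met last by Kcnh6, at a mean of 0.508 FPKM, and missed first by Kcng3, at 0.419 FPKM.

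The first comparison, of PT with sham, asked which subunit genes differed around the infarct. Subunits of voltage-gated, G protein-gated and leak channels fell, among them Kcna3, Kcnh7, Kcnv1, Kcnj6 and Kcnk9, while a smaller set of Kir, tandem-pore and membrane auxiliary subunits rose, among them Kcnj15, Kcnk5 and Kcnk6. The quasi-likelihood test of edgeR called 33 of the 75 at a Benjamini-Hochberg adjusted p under 0.05 (44.0%, against a background of 30.9% of the 16740 genes tested). Of these, 24 were lower (32.0%, against 11.8%) and 9 higher (12%, against 19.1%). With all PT libraries below all sham libraries there were 33 subunit genes (18.6% of all tested genes), and with all above there were 9 (29.3%). Where called genes below are said not to overlap, that comes from the same values as the call and is no further support. The median log2 fold change was -0.37 over the subunit genes and 0.00 over all tested genes. In bulk tissue, fewer cells of a type and less RNA per cell cannot be told apart. Summed over 10 pan-neuronal markers, PT libraries 1, 2 and 3 stood at 59.9%, 74.4% and 77.0% of the sham mean, and 8 of those 10 markers fell (median -0.48); their part in the falls below was not tested. The count of lower subunit genes was 10, 12 and 15 without sham 1, 2 or 3, 14 without PT 2, and 16 without PT 1 and Pushen 2. The count of higher ones was 5 without sham 2 and 5 without PT 1.

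**Figure D1:**
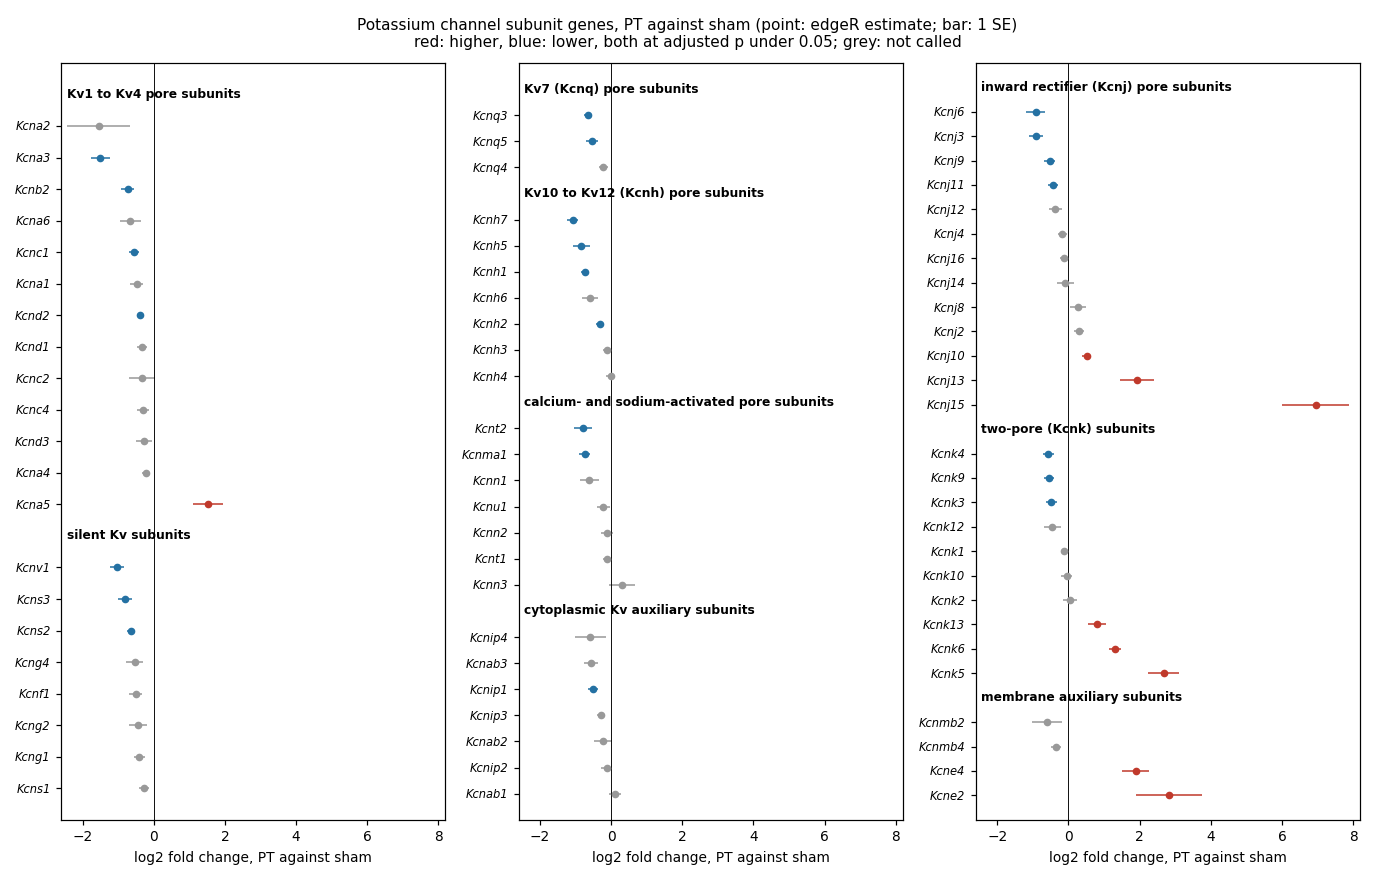
Log2 fold change of 72 tested subunit genes in PT against sham (x axis, log2 units), grouped by class; points are edgeR estimates and bars 1 standard error, red for the 9 genes called higher, blue for 23 called lower and grey for 40 not called. The called falls lie between -0.32 (Kcnh2) and -1.5 (Kcna3), whereas Kcnj15 lies far to the right at 6.94.

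The rises were led by genes that were low in sham. Kcnj15, Kcne2, Kcnk5 and Kcne4 had sham means of 0.01, 0.15, 0.35 and 0.48 FPKM, under the test level. They were tested only because their infarct libraries raised the mean over all libraries, so their rises were partly a condition of testing. Genes as low in sham that did not rise were not tested. Kcnj15, an inward rectifier subunit best known from kidney, had 0.00, 0.02 and 0.02 FPKM in sham libraries 1, 2 and 3 (0, 10 and 12 counts), 3.51, 1.74 and 0.48 FPKM in PT, and 1.52, 2.01 and 1.10 FPKM in Pushen. No infarct library overlapped sham, and the 3 PT libraries differed 7.31-fold among themselves. Its fitted log2 fold change in PT was 6.94 ± 0.93 (SE, adjusted p = 0.0011), a 123-fold rise that became 71.8-fold without PT 1.

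Kcnk5, an acid-sensitive tandem-pore subunit of epithelia and lymphocytes, had 0.33, 0.25 and 0.46 FPKM in sham, 2.94, 2.70 and 1.31 in PT, and 2.16, 3.41 and 1.29 in Pushen. Here again every infarct library lay above every sham library, with library 3 lowest in both infarct groups (log2 fold change 2.68 ± 0.43, adjusted p = 0.00242). Kcnk6, a tandem-pore subunit also found in macrophages, had 1.31, 1.08 and 1.34 FPKM in sham, 3.88, 2.80 and 2.96 in PT, and 3.28, 3.43 and 2.46 in Pushen. It was the most even of these rises (1.31 ± 0.18, adjusted p = 0.00112), and neither infarct group overlapped sham. Kcnk13, the subunit of the microglial resting current, had 1.29, 1.25 and 1.96 FPKM in sham, 3.30, 3.03 and 1.85 in PT, and 2.90, 2.40 and 2.25 in Pushen. PT library 3 lay within the sham range, and the rise (0.80 ± 0.25, adjusted p = 0.0378) was lost without sham 1 or 2, PT 1 or 2, or Pushen 1 or 2 (adjusted p = 0.121, 0.121, 0.123, 0.101, 0.0503 and 0.0533). Markers of several cell types also rose. Of 10 microglia and macrophage markers 8 rose (median log2 fold change 2.02), and their summed level was 80.6 to 98.9 FPKM in sham, 427 to 718 in PT and 292 to 538 in Pushen. All 7 fibroblast and meningeal markers, all 5 ependymal markers and 8 of 9 astrocyte markers rose as well. The part of any of these cell types was not tested.

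Regulatory sequence is shown for Kcnj15 and Kcnk5, which rose from under 0.5 FPKM in sham and had no match to the 4 motifs searched. It is also shown for 2 of the G protein-gated subunits that fell, Kcnj6 and Kcnj9, which had 1 match each. Kcnj3, also G protein-gated and also lower, had no match and is not shown. The other listed window of Kcnj6 had no match either. The sequences are RefSeq promoters (GRCm38.p6), from 250 bases before to 50 after a gene's start, and capitals mark matches to TTCNNNGAA.
Kcnj15, chr16:95257308-95257607, plus strand: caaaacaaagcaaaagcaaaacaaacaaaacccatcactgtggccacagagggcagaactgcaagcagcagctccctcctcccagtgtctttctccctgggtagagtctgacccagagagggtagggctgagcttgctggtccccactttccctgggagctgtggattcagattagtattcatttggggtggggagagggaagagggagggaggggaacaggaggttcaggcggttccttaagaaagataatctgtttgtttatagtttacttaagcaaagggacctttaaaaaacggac
Kcnk5, chr14:20181733-20182032, minus strand: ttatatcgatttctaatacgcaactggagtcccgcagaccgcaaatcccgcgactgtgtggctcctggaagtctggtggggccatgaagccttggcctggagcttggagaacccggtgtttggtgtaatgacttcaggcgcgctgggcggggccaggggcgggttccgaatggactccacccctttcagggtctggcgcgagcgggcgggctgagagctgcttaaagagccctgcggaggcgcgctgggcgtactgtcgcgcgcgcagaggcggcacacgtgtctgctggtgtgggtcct
Kcnj6, chr16:94997647-94997946, minus strand, 1 of its 2 listed starts: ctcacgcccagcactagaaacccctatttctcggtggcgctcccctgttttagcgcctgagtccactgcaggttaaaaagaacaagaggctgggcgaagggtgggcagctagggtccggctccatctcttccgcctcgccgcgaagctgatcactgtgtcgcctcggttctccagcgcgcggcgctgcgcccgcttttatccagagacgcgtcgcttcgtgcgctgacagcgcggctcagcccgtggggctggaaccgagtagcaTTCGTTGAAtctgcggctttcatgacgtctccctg
Kcnj9, chr1:172329273-172329572, minus strand: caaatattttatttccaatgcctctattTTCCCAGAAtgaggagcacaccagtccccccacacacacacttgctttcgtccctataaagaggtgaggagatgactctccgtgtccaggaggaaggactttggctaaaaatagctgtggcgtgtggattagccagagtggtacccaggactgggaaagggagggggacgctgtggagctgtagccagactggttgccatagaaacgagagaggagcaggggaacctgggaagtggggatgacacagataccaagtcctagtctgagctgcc
The Kcnj15 window is 49.7% G or C with 2 CpG dinucleotides, and the Kcnk5 window is 63.7% with 26; the median of all 32851 promoters is 52.7% with 7. The letters searched, on both strands, were TGANTCA, GAGGAAGT, TGACGTCA and TTCNNNGAA, none of which contains another. Promoters were listed for 67 of the 92 subunit genes, 92 windows in all. Of these windows 4.35% held TGANTCA, 8.70% TTCNNNGAA, and 0 the other two, against 7.81%, 8.30%, 3.20% (GAGGAAGT) and 1.79% (TGACGTCA) of all promoters. Of the 9 subunit genes that rose, 8 had a listed promoter and 0 held any of the 4. Of the 24 that fell, 16 had one, and 4 held TTCNNNGAA in a listed window (Kcnip1, Kcnj6, Kcnj9 and Kcnk4). Of the tested genes not called, 29 had a listed promoter, and 4 held TTCNNNGAA. These counts are per gene, and a gene can have several windows, so they cannot be set against the shares of windows above. A match is only a run of letters and no match says only that these letters are not in this window.

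The glial subunit Kcnj10, which carries the potassium-buffering current of astrocytes, was by far the most abundant of the genes that rose. It had 29.6, 24.5 and 32.5 FPKM in sham, 47.4, 42.0 and 39.6 in PT, and 37.6, 41.3 and 33.4 in Pushen. PT and sham did not overlap, and the rise was 1.43-fold (0.52 ± 0.12, adjusted p = 0.0146), while its usual astrocytic partner Kcnj16 had -0.11 ± 0.12 (adjusted p = 0.488). Of 9 astrocyte markers 8 rose (median 0.74), and their summed level was 306 to 341 FPKM in sham, 600 to 913 in PT and 522 to 741 in Pushen; their part was not tested. Kcnj10 spans 172341210 to 172374085 of chromosome 1, plus strand, in the deposited coordinates (GRCm38), and Kcnj15 spans 95257558 to 95300260 of chromosome 16, also on the plus strand.

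**Figure D2:**
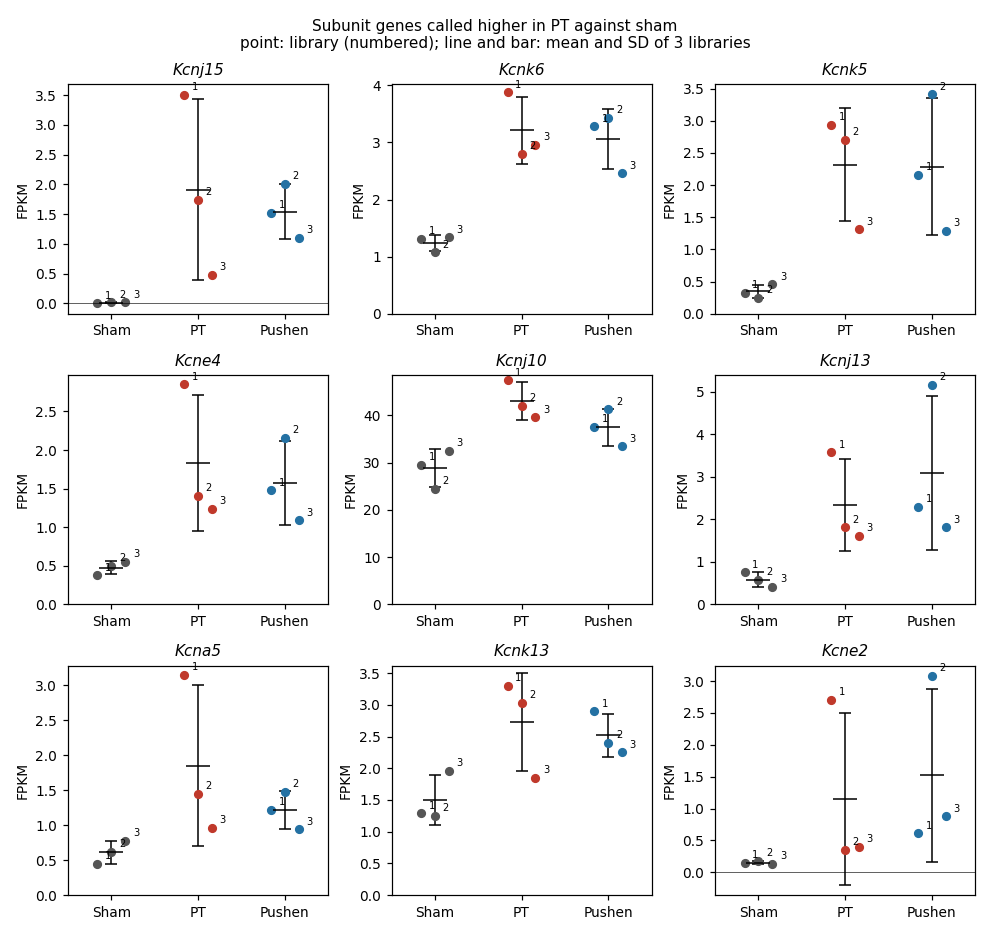
FPKM (y axis) of the 9 subunit genes called higher in PT against sham, by group; points are libraries, numbered 1 to 3, and lines and bars the mean and SD of 3 libraries. PT library 1 is the highest PT library in all 9 panels, and Pushen library 2 is the highest Pushen library in all but Kcnk13. Over all 3202 genes called higher in PT against sham these shares are 68.9% and 56.6%.

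Kcne2 and Kcnj13 are known from the choroid plexus epithelium, where Kcne2 is an auxiliary subunit and Kcnj13 an inward rectifier. Kcne2 had 0.15, 0.18 and 0.13 FPKM in sham, 2.71, 0.35 and 0.40 in PT, and 0.61, 3.08 and 0.88 in Pushen. Its 2 high libraries were those richest in choroid plexus markers, PT library 1 and Pushen library 2. The other infarct libraries also lay above sham, both in Kcne2 and in the summed choroid plexus markers (22.2 to 151 FPKM, against 3.02 to 18.5). Kcnj13 had 0.76, 0.58 and 0.42 FPKM in sham, 3.58, 1.81 and 1.62 in PT, and 2.30, 5.16 and 1.81 in Pushen, again highest in the same libraries. Outside those 2 libraries Kcnj13 ran in the opposite order to the summed markers within each group. The markers were at 3.02, 12.7 and 18.5 FPKM in sham 1, 2 and 3. They were at 22.2 and 49.1 in PT 2 and 3, and at 28.7 and 151 in Pushen 1 and 3. Of the 1270 exon bases of Kcnj13 49.1% are shared with exons of Gigyf2 on the opposite strand. Strand was not stated for the counting, so the level of Kcnj13 is uncertain. The rises of Kcne2 (2.83 ± 0.93, adjusted p = 0.0459) and Kcnj13 (1.93 ± 0.48, adjusted p = 0.0159) lost their calls without single libraries. Without PT library 1 the values were 1.23 (adjusted p = 0.223) and 1.49 (adjusted p = 0.0533). Kcne2 was also lost without sham 1, 2 or 3 or Pushen 3 (adjusted p = 0.125, 0.109, 0.117 and 0.0532), and Kcnj13 without sham 2 or 3 (0.0537 and 0.0545). Of 6 tested choroid plexus markers 2 were called higher, with a median log2 fold change of 3.36. All 6 had every PT library above every sham library, as did 29.3% of all tested genes. The part of choroid plexus RNA in the rises of Kcne2 and Kcnj13 was not tested.

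**Figure D3:**
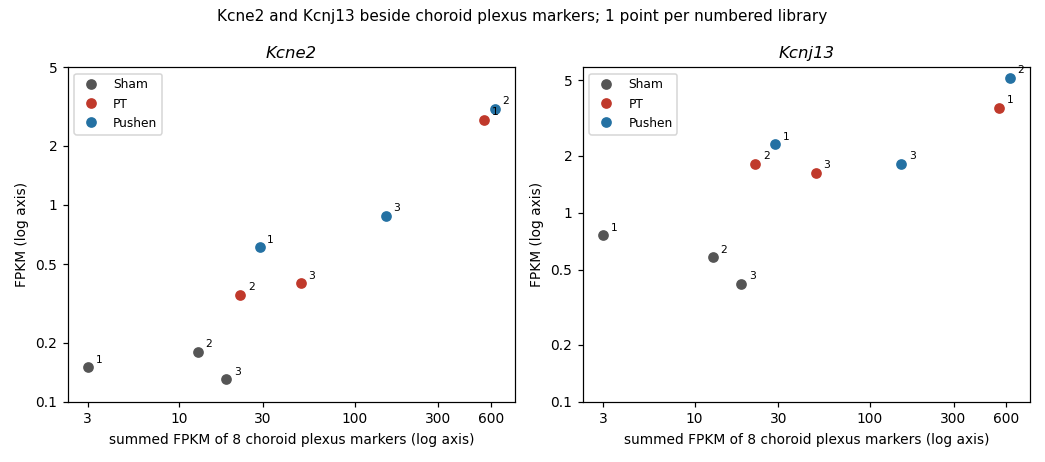
FPKM of Kcne2 (left) and Kcnj13 (right) against the summed FPKM of 8 choroid plexus markers, both axes logarithmic, 1 numbered point per library. PT library 1 and Pushen library 2 sit at the top right, at 2.71 and 3.08 FPKM of Kcne2, and the 3 sham libraries at the bottom left, at 0.13 to 0.18.

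The remaining rises were Kcne4, an auxiliary subunit that restrains Kv currents, and Kcna5, a Kv subunit of vascular smooth muscle and glia. Kcne4 had 0.38, 0.50 and 0.55 FPKM in sham, 2.85, 1.41 and 1.24 in PT, and 1.48, 2.16 and 1.09 in Pushen, and neither infarct group overlapped sham (1.89 ± 0.37, adjusted p = 0.00587). Kcna5 had 0.45, 0.62 and 0.78 FPKM in sham, 3.15, 1.45 and 0.96 in PT, and 1.22, 1.48 and 0.94 in Pushen, with PT library 1 far above the rest (1.53 ± 0.42, adjusted p = 0.0238). Its call was lost without sham 1 or 2 or PT 1 (adjusted p = 0.0866, 0.0705 and 0.0634), and with the last left out the log2 fold change was 0.91. Of 8 pericyte and smooth muscle markers 7 rose, with a summed level of 35.1 to 38.5 FPKM in sham, 53.8 to 70.2 in PT and 43.9 to 64.0 in Pushen, and all 7 fibroblast and meningeal markers rose; their part was not tested.

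Among Kv1 to Kv4 pore subunits 15 of 17 were tested, and 5 fell (33.3%). Here and for the classes below, the share is to be read beside 32.0% of all tested subunit genes and 11.8% of all tested genes. Each class holds few genes, and the classes were not tested against each other. Kcna3, a delayed rectifier of neurons that also serves T cells and microglia, showed the largest called fall of any subunit gene. It had 2.66, 3.07 and 2.88 FPKM in sham, 0.63, 1.06 and 1.47 in PT, and 1.51, 1.28 and 1.30 in Pushen, so that every infarct library was below every sham library. Its level in PT libraries 1, 2 and 3 was 22.0%, 36.9% and 51.2% of the sham mean (log2 fold change -1.5 ± 0.28, adjusted p = 0.00437). Kcnd2, which carries the dendritic A-type current, had 18.9, 19.3 and 17.0 FPKM in sham, 13.8, 13.9 and 15.7 in PT, and 15.6, 15.5 and 15.2 in Pushen. This fall was small and even (-0.40 ± 0.08, adjusted p = 0.00719). Kcnc1, which lets interneurons fire fast, had 29.1, 30.8 and 29.97 FPKM in sham, 16.3, 21.2 and 25.9 in PT, and 23.0, 22.3 and 23.2 in Pushen (-0.56 ± 0.14, adjusted p = 0.0192). Of 8 interneuron markers 4 fell, and the 8 spanned log2 fold changes from -2.58 to 1.16. Their summed level in PT libraries 1, 2 and 3 was 79.7%, 74.5% and 78.8% of the sham mean. Kcnc1 stood at 54.5%, 70.7% and 86.3%. The part of interneurons was not tested. The delayed rectifier Kcnb2 had 2.02, 1.85 and 1.96 FPKM in sham, 0.84, 1.24 and 1.56 in PT, and 1.42, 1.55 and 1.46 in Pushen (-0.74 ± 0.19, adjusted p = 0.0201). All of these subunit genes lay fully below sham in PT, as did 18.6% of all tested genes. Kcnc1 was lost without sham 1 or 2 or PT 2 (adjusted p = 0.0533, 0.058 and 0.0533) and Kcnb2 without sham 1 or 3 or PT 2 (0.0657, 0.05 and 0.0519).

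Silent Kv subunits, which form no channel alone but alter other Kv channels, had 8 of 10 members tested and 3 called, all lower (37.5%). Kcnv1 had 22.8, 21.2 and 20.8 FPKM in sham, 7.96, 13.0 and 11.7 in PT, and 11.4, 11.8 and 15.9 in Pushen, a fall of 1.04 ± 0.19 on the log2 scale (adjusted p = 0.00463). Kcns2 was the most even, with 5.42, 5.40 and 5.30 FPKM in sham, 3.53, 3.36 and 3.85 in PT, and 4.15, 3.61 and 4.29 in Pushen (-0.64 ± 0.10, adjusted p = 0.00186). Kcns3 had 2.60, 2.46 and 2.88 FPKM in sham, 1.13, 1.81 and 1.78 in PT, and 1.94, 1.88 and 2.47 in Pushen (-0.81 ± 0.20, adjusted p = 0.0166). PT lay fully below sham for these 3, as for 18.6% of all tested genes. Kcns3 missed the threshold without sham 1 or 3 (adjusted p = 0.05 and 0.0532).

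Ether-à-go-go (Kcnh) subunits, which open slowly and damp excitability, had 7 of 8 members tested and 4 that fell (57.1%). Kcnh7 had 10.8, 8.45 and 9.43 FPKM in sham, 3.62, 5 and 5.46 in PT, and 5.50, 5.69 and 6.03 in Pushen (-1.08 ± 0.16, adjusted p = 0.00158). Kcnh1 had 14.4, 15.8 and 14.9 FPKM in sham, 7.75, 9.57 and 10.9 in PT, and 9.53, 9.82 and 10.2 in Pushen (-0.73 ± 0.12, adjusted p = 0.00257). For both, all 6 infarct libraries were below all sham libraries. Kcnh5 had 2.48, 2.97 and 2.78 FPKM in sham, 1.08, 1.88 and 1.81 in PT, and 2.67, 2.18 and 1.62 in Pushen, where library 1 reached the sham range (-0.84 ± 0.24, adjusted p = 0.0262). Kcnh2 had 7.06, 7.87 and 8.06 FPKM in sham, 6.48, 5.80 and 6.89 in PT, and 6.04, 5.97 and 6.93 in Pushen, the smallest called fall (-0.32 ± 0.10, adjusted p = 0.0441). Kcnh5 was lost without sham 1, 2 or 3 or PT 1 (adjusted p = 0.0554, 0.077, 0.0625 and 0.0545). Kcnh2 was lost without sham 1, 2 or 3, PT 1 or 2, or Pushen 1 or 2 (0.0635, 0.115, 0.125, 0.0836, 0.129, 0.0612 and 0.0548). Kcnh4 was not called (-0.01 ± 0.12) and was highest in PT library 1, at 9.90 FPKM.

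Of the Kcnq subunits, which form the muscarine-sensitive M current, 4 of 5 were tested and 2 fell. Kcnq3 had 14.7, 15.2 and 14.7 FPKM in sham, 8.35, 9.54 and 11.7 in PT, and 11.8, 11.2 and 9.88 in Pushen (-0.65 ± 0.12, adjusted p = 0.00521). Its partner Kcnq5 had 20.0, 18.2 and 16.4 FPKM in sham, 9.94, 13.6 and 15.6 in PT, and 13.2, 15.8 and 14.4 in Pushen (-0.54 ± 0.16, adjusted p = 0.0349). PT and sham were fully apart for each. Kcnq5 was lost without sham 1 or 2 or PT 1 or 2 (adjusted p = 0.117, 0.0789, 0.0678 and 0.0719).

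Of the calcium- and sodium-activated pore subunits 7 of 8 were tested and 2 fell (28.6%). Kcnma1, the pore of the large-conductance calcium-activated channel, had 22.6, 20.5 and 19.3 FPKM in sham, 9.95, 13.2 and 15.5 in PT, and 14.5, 15.2 and 14.9 in Pushen (-0.75 ± 0.15, adjusted p = 0.0066). No infarct library overlapped sham. Kcnt2, a sodium-activated subunit, had 3.35, 3.02 and 3.38 FPKM in sham, 1.18, 2.62 and 2.04 in PT, and 2.21, 1.81 and 2.48 in Pushen (-0.80 ± 0.25, adjusted p = 0.0416). Its call was lost without any 1 of the sham libraries, without PT 1 or 3 and without Pushen 1 (adjusted p = 0.109, 0.0743, 0.0942, 0.0525, 0.0636 and 0.0603). Its paralogue Kcnt1 had -0.12 ± 0.11 (adjusted p = 0.451).

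Within the inward rectifiers 13 of 15 were tested, and 4 fell (30.8%). The G protein-gated subunits Kcnj3, Kcnj6 and Kcnj9, through which inhibitory receptors open potassium conductance, were all among them. Kcnj3 had 11.5, 12.3 and 11.7 FPKM in sham, 4.13, 7.57 and 7.88 in PT, and 9.21, 9.58 and 10 in Pushen (-0.91 ± 0.21, adjusted p = 0.0112). Of its exon bases 31.1% are shared with an antisense gene, so its level is uncertain. Kcnj6 had 3.41, 4.02 and 3.68 FPKM in sham, 1.17, 2.10 and 2.84 in PT, and 3.29, 2.89 and 2.54 in Pushen (-0.92 ± 0.27, adjusted p = 0.0308). Kcnj9 was much more abundant, with 44.2, 50.6 and 48.5 FPKM in sham, 26.5, 36.9 and 39.6 in PT, and 32.7, 33.4 and 39.8 in Pushen (-0.53 ± 0.15, adjusted p = 0.0282). PT lay below sham in every library for all 3, as for 18.6% of all tested genes, and PT library 1 was lowest. Kcnj11, the pore of the ATP-sensitive channel, fell from 13.4 ± 1.95 to 10.4 ± 0.949 FPKM (SD, n = 3 each; -0.43 ± 0.13). Kcnj6 was lost without sham 1, 2 or 3 or PT 2 (adjusted p = 0.0672, 0.0845, 0.0665 and 0.0713), Kcnj9 without the same libraries (0.0571, 0.0834, 0.0687 and 0.0508), and Kcnj11 without sham 1 or 2, PT 1 or 2 or Pushen 2 (0.126, 0.103, 0.11, 0.0589 and 0.052).

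Tandem-pore subunits fell in 3 of 10 tested cases, beside the 3 that rose. Kcnk9, an acid-sensitive leak subunit of neurons, had 16.5, 16.04 and 16.5 FPKM in sham, 9.52, 11.6 and 13.8 in PT, and 13.0, 13.0 and 15.4 in Pushen (-0.55 ± 0.14, adjusted p = 0.0172). Kcnk4, a mechanosensitive leak subunit, had 4.84, 5.12 and 4.60 FPKM in sham, 2.59, 3.54 and 4.08 in PT, and 3.66, 3.98 and 3.82 in Pushen (-0.57 ± 0.15, adjusted p = 0.0233), and shares 13.1% of its exon bases with Catsperz. Kcnk3, the closest relative of Kcnk9, stood at 7.25 ± 0.254 FPKM in sham and 5.38 ± 0.739 in PT (SD, n = 3 each; -0.49 ± 0.15). PT and sham were fully apart for these genes, whereas Kcnk1, the most abundant subunit of the class, had -0.12 ± 0.08 (adjusted p = 0.267). Kcnk9 was lost without sham 1 or PT 2 (adjusted p = 0.057 and 0.051), Kcnk4 without sham 1 or 2 or PT 2 (0.068, 0.0717 and 0.0521), and Kcnk3 without sham 1, 2 or 3 or PT 1 or 2 (0.0877, 0.0975, 0.0928, 0.119 and 0.0727).

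Of the cytoplasmic auxiliary subunits all 7 were tested, and 1 was called (14.3%). This was Kcnip1, a calcium sensor that binds Kv4 channels. It had 3.56, 3.74 and 3.97 FPKM in sham, 2.24, 2.76 and 3.23 in PT, and 2.99, 2.83 and 3.08 in Pushen (-0.51 ± 0.13, adjusted p = 0.0198), and neither infarct group overlapped sham. The call was lost without sham 2 or 3 or PT 2 (adjusted p = 0.0525, 0.0614 and 0.0525). Its relatives Kcnip2, Kcnip3 and Kcnip4 had -0.13 ± 0.15, -0.30 ± 0.11 and -0.59 ± 0.43, and were not called. Of the membrane auxiliary subunits 4 of 8 were tested, the 2 not called being Kcnmb2 and Kcnmb4 (-0.61 ± 0.42 and -0.35 ± 0.14).

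The 24 falls were uneven between PT libraries. PT library 1 was the lowest PT library for 22 of them and PT library 3 the highest for 19. Over all 1974 genes called lower the shares were 81.4% and 61.3%, so the subunit genes shared this order with the other falling genes. In PT library 1 the 23 genes plotted lay between 22.0% (Kcna3) and 84.6% (Kcnh2) of the sham mean, with the summed pan-neuronal markers at 59.9%. In PT library 3 they lay between 51.2% (Kcna3) and 89.9% (Kcnh2), with the neuronal markers at 77.0%.

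**Figure D4:**
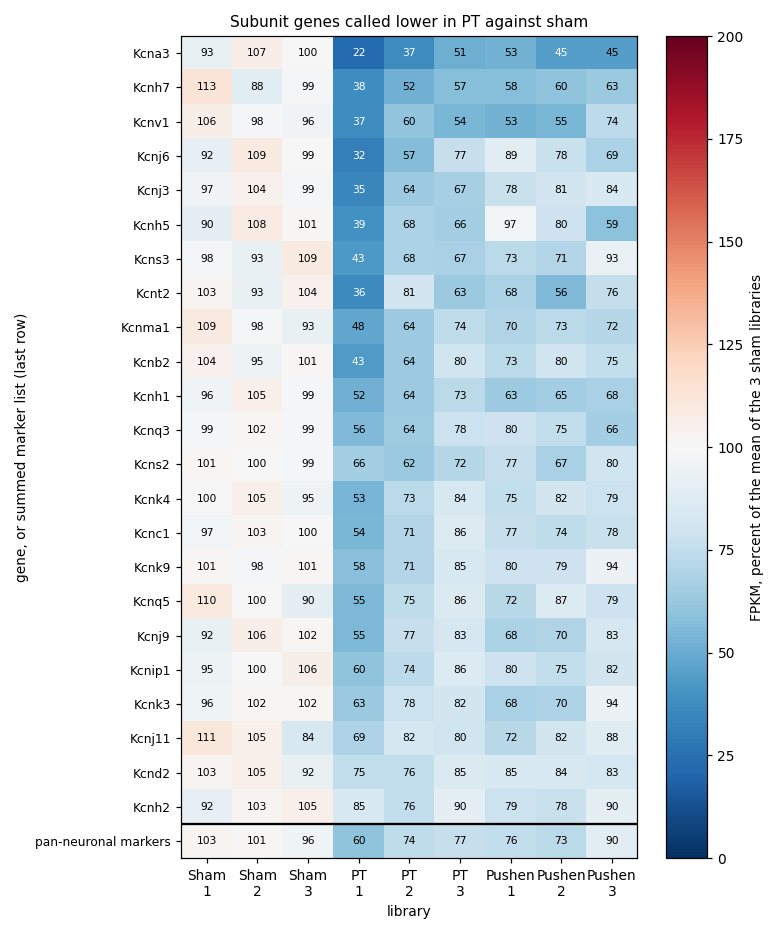
FPKM of 23 subunit genes called lower in PT against sham, as percent of the mean of the 3 sham libraries (colour and printed value), for 9 libraries; the last line gives the summed pan-neuronal markers. PT library 1 holds the lowest value in the plot, at 22.0% for Kcna3.

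Some of the subunit genes that were not called were uneven within a group. Kcna2, a Kv subunit of axons, had 31.5, 30.4 and 30.8 FPKM in sham, 2.23, 3.69 and 27.0 in PT, and 19.0, 4.11 and 18.8 in Pushen. PT libraries 1 and 2 and Pushen library 2 were thus far below the others, a 12.1-fold range within PT against 1.04-fold in sham. The counts showed the same, with 28382 to 29978 in sham and 2156, 3766 and 23499 in PT, and the test did not call it (-1.54 ± 0.89, adjusted p = 0.217). Without PT 3, the high library, Kcna2 was called lower (-3.45, adjusted p = 0.0056). That call follows from leaving out the PT library nearest sham and is no support for a fall. Over all single libraries left out, the adjusted p of Kcna2 ranged from 0.0056 to 0.414. Kcnip4 was low in Pushen library 2 alone, at 3.49 FPKM against 11.9 and 15.8 in Pushen libraries 1 and 3, and without that library it was called lower in PT against sham (adjusted p = 0.0323). With other single libraries left out, its adjusted p in PT against sham reached 0.558. Kcnmb2 was low in Pushen library 1 alone, at 0.15 FPKM against 0.67 and 0.52. Kcna6 ranged 2.41-fold in sham, and 39.6% of its exon bases are shared with an antisense gene. Over the 75 tested subunit genes, the highest library exceeded the lowest by more than 2-fold in 3 cases in sham, 12 in PT and 7 in Pushen, and 7.69%, 10.6% and 10.7% of all tested genes did so. These genes were chosen after their values were seen.

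**Figure D5:**
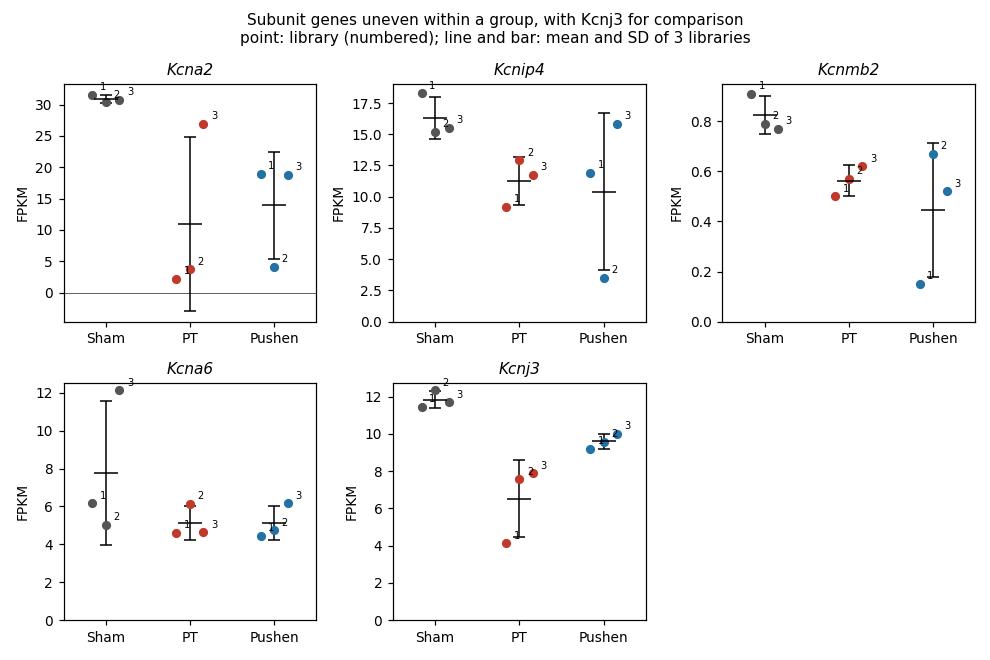
FPKM (y axis) by group for 4 subunit genes that were uneven within a group and for Kcnj3; points are numbered libraries, lines and bars the mean and SD of 3 libraries. Kcna2 splits into libraries at 18.8 FPKM or more and libraries at 4.11 or less, whereas the Kcnj3 libraries of sham and of Pushen stay close together.

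The 17 genes below the test level had means of 0.419 FPKM or less, and Kcne1 had no count at all. Those with a contrast between groups, chosen after their values were seen were Kcnn4, a calcium-activated subunit of immune cells, the tandem-pore subunit Kcnk7 and the auxiliary subunit Kcne3. Kcnn4 had 19, 13 and 19 counts in sham, 188, 139 and 125 in PT, and 98, 116 and 41 in Pushen, with no overlap between sham and infarct libraries. With no filter on low values its log2 fold change in PT was 3.02 ± 0.41 (adjusted p = 0.0012). Kcnk7 had 0 counts in all sham libraries, 32, 22 and 12 in PT, and 12, 25 and 11 in Pushen, which makes it at least 7.22-fold higher in PT and at least 5.74-fold higher in Pushen against a floor of 3 counts per sham library. Kcne3 had 18, 10 and 8 counts in sham, 12, 7 and 8 in PT, and 0, 2 and 0 in Pushen, and was not called against PT (adjusted p = 0.76 with no filter).

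Genes that work with these channels moved in both directions. Of 27 tested partner genes (anchoring, clustering and regulatory proteins) 9 fell in PT (33.3%, against 11.8% of all tested genes). In the same list 3 rose (11.1%, against 19.1%), and the median log2 fold change was -0.34. Sgk1, a kinase that raises channel surface levels, rose from 12.2 ± 2.99 to 27.4 ± 2.90 FPKM (SD, n = 3 each; 1.11 ± 0.20), and Lgi4 rose by 0.85 ± 0.17. Adam22, the receptor of the Lgi proteins at Kv1 clusters, fell by 0.58 ± 0.11 and Lgi2 by 0.60 ± 0.12. Of 17 tested potassium transport and HCN genes 6 rose (35.3%, against 19.1%) and 3 fell (17.6%, against 11.8%), with a median of 0.02. Those named next are among the genes of smallest p in this list, and all of them rose. Fxyd1, a regulator of the sodium pump, rose from 5.75 ± 0.303 to 23.5 ± 8.19 FPKM (1.96 ± 0.24), and the pump subunit Atp1b3 rose by 0.63 ± 0.11. The cotransporters Slc12a7 and Slc12a4 rose by 1.44 ± 0.24 and 0.77 ± 0.16.

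The treated infarct was next set against sham, with the same 3 control libraries, so the values stand beside those of PT without being independent of them. Kcnj15 (6.63 ± 0.93, adjusted p = 0.00195) and Kcnk5 (2.65 ± 0.43, adjusted p = 0.0038) rose, and 6 of 75 tested subunit genes were higher (8%, against a background of 13.5%). The others were Kcne2 (3.23 ± 0.94, adjusted p = 0.0469), Kcnj13 (2.32 ± 0.48, adjusted p = 0.0116), Kcne4 (1.66 ± 0.37, adjusted p = 0.0156) and Kcnk6 (1.23 ± 0.18, adjusted p = 0.00224). Lower were 8 (10.7%, against 2.73%), which made 14 called in all (18.7%, against 16.2%). DESeq2 called 20 lower, and edgeR called 26 lower in a fit of only sham and Pushen. All Pushen libraries lay above all sham libraries for 12 subunit genes (27.2% of all tested genes did so) and below them for 33 (13.1%). Kcna3 (-1.14 ± 0.27, adjusted p = 0.0219), Kcnh7 (-0.80 ± 0.16, adjusted p = 0.00915), Kcnv1 (-0.79 ± 0.19, adjusted p = 0.0233) and Kcnh1 (-0.68 ± 0.12, adjusted p = 0.00541) had the largest falls. Kcnma1 (-0.55 ± 0.15), Kcnq3 (-0.51 ± 0.12), Kcns2 (-0.49 ± 0.10) and Kcnd2 (-0.32 ± 0.08) also fell. Summed pan-neuronal markers stood at 75.7%, 73.3% and 89.5% of sham in the Pushen libraries.

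Without 1 library several of these calls in Pushen against sham changed. The count of lower genes was 23 without PT 1 and 15 without PT 3, though neither library belongs to the groups compared, and 14 without Pushen 3. It was 3 without sham 1 or 2, 5 without sham 3, and 3 without Pushen 1 or 2, while the higher count was 3 without sham 2 and 4 without sham 1 or Pushen 2. Kcnh1, Kcnh7, Kcns2, Kcnj15, Kcnk5 and Kcnk6 were called with any 1 library left out. Kcna3 was lost without any sham library or without Pushen 1 or 2 (adjusted p = 0.0556, 0.0747, 0.0577, 0.0596 and 0.0821), and so was Kcnv1 (0.08, 0.0635, 0.0524, 0.0921 and 0.0908). Kcne2 was lost without the same libraries (0.135, 0.128, 0.127, 0.0538 and 0.166, the log2 fold change being 2.20 without Pushen library 2). Kcnd2 was lost without sham 1 or 2 or any Pushen library (0.0958, 0.108, 0.0946, 0.0919 and 0.0504). Kcne4 was lost without sham 1 or 2 or Pushen 2 (0.0667, 0.0587 and 0.0598), and Kcnj13 without sham 2 (0.0506). Kcnq3 was lost without any sham or any Pushen library (0.0714, 0.078, 0.0589, 0.0503, 0.0713 and 0.0553), and Kcnma1 without these or PT 2 (0.124, 0.0912, 0.0598, 0.121, 0.0999, 0.0624 and 0.0594).

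The comparison of Pushen with PT asked whether treatment changed any subunit gene around the infarct. By edgeR's quasi-likelihood test 0 of 75 were called, as were 0 of all 16740 genes (0.0%). DESeq2 called 0 of the subunit genes and 48 of all genes. At an unadjusted p under 0.05 there were 2 subunit genes (2.67%), against 6.49% of all tested genes. These were Kcnj3, with 4.13, 7.57 and 7.88 FPKM in PT and 9.21, 9.58 and 10 in Pushen (0.55 ± 0.21, adjusted p = 0.707), and Kcnh4, with 9.90, 7.57 and 9.49 in PT and 7.01, 7.35 and 7.85 in Pushen (-0.29 ± 0.12, adjusted p = 0.707). Every Pushen library of Kcnj3 lay above every PT library, while Kcnh4 overlapped. The level of Kcnj3 is uncertain, since 31.1% of its exon bases are shared with an antisense gene. Next by p were Kcnh6 (0.34, 0.52 and 0.32 FPKM in PT and 0.53, 0.51 and 0.64 in Pushen), Kcnj14 (0.56, 0.49 and 0.76 in PT and 0.33, 0.42 and 0.51 in Pushen) and Kcns3 (1.13, 1.81 and 1.78 in PT and 1.94, 1.88 and 2.47 in Pushen). Their log2 fold changes were 0.49 ± 0.23, -0.52 ± 0.25 and 0.41 ± 0.20, each at an adjusted p of 0.707. Kcnj3, Kcns3 and Kcnh7 were the 3 tested subunit genes with all Pushen libraries above all PT libraries, 0 had them all below, and 7.25% and 5.19% of all tested genes did so. The summed striatal markers, at 666, 174 and 108 FPKM in PT libraries 1, 2 and 3 and 134, 131 and 101 in Pushen, were highest in the same library as Kcnh4, and their part was not tested.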

How the data were processed

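Per the labels' protocols, the 9 libraries were made from total RNA with an Illumina TruSeq kit. In the table deposited by the authors each gene has a read count for every library, and beside it the FPKM that the authors scaled to gene length and depth. Total counts lay between 57437342 and 75100133. Bowtie 0.12.2 and the build mm8 are named in the submitters' processing notes; no source used here names the counter or its strand setting. The coordinates were set against GRCm38 and were identical to GENCODE M21 for 51957 of 55141 shared genes (94.2%). All 18 value columns matched a library by name.

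The test took the 16740 genes whose mean over libraries reached 0.5 FPKM. With TMM scaling, 1 model for all 3 groups was fitted to the counts in edgeR 4.0.16 (R 4.3.3). The quasi-likelihood test was made per comparison, with Benjamini-Hochberg adjustment over all tested genes, and an adjusted p under 0.05 was called. Fold changes are log2 values, and each SE was obtained by dividing the change by the root of its F statistic. Marker lists were summed as FPKM.

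Subunit genes, classes, lists and motifs were chosen with earlier results of these data known. A few genes are counted but not reported by name here. All other called subunit genes are named, as are the most abundant of most classes, the 5 of smallest p in Pushen against PT and the genes at the filter's border. Values per library are given for up to 5 called genes per class, by smallest p, and for Kcnj6, added after its values were seen. Alternatives were DESeq2 1.42.0, DESeq2's size factors, other filters, fits of the compared groups only, a replicate block and left-out libraries. Protein sequences were not analysed here. Plots used matplotlib 3.10.9 (Python 3.11.15).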

Additional observations from a re-analysis of the deposited data

How the results depend on the processing

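None of the subunit genes called changed direction under any alternative run. Leaving out 1 library gave between 10 and 30 lower and 5 and 9 higher subunit genes in PT against sham, and between 3 and 23 lower and 3 and 7 higher in Pushen against sham. Over all genes it gave between 3198 and 5799 calls in PT against sham, 1538 and 3736 in Pushen against sham, and 0 and 5 in Pushen against PT. DESeq2 called 20 lower subunit genes in Pushen against sham and 48 genes of all in Pushen against PT, and a fit of only the groups compared called 26 and 1. Without PT library 1 and Pushen library 2, 2 of all genes were called in Pushen against PT. The cause of these differences was not tested. With a replicate block, 6 subunit genes were higher and 21 lower in PT against sham, 5 and 6 in Pushen against sham, and 0 in Pushen against PT. Deviations from the group mean correlated between -0.22 and 0.099 for libraries of the same number. For libraries of different number they correlated between -0.105 and 0.152. The labels state no pairing, and these correlations cannot exclude a shared batch or a pairing. Of 33 calls in PT against sham 14 held under all 16 alternatives that tested them, and 6 of 14 in Pushen against sham. Depth limits the genes below the test level, where the floor of 3 counts per library covers counting error only.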
